A study of Mus musculus with 9 samples.

Results

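Collagen VI and several other non-fibrillar collagens were followed here by name. Collagen VI below means 3 of its chain genes, since Col6a6 was counted with the other non-fibrillar collagens. The 9 genes were Col6a1, Col6a2 and Col6a3 of collagen VI, with Col8a1, Col12a1, Col14a1, Col15a1, Col16a1 and Col18a1. Each of these 9 symbols had 1 row among the 20634 genes of the deposited tables, all 9 passed the filter on low counts, and they are described whatever their result. RNA was taken from the left ventricle of C57BL/6 mice at 6 months of age, either wild type (WT) or delta-sarcoglycan (dSG) knockout (KO). Delta-sarcoglycan, the product of Sgcd, is a membrane protein of the dystrophin-associated complex, and its loss gives muscular dystrophy with cardiomyopathy. From weaning, mice drank normal water (vehicle) or water that gave ifetroban, an antagonist of the TP receptor for thromboxane and related prostanoids, at 25 mg/kg/day. Running wheels were supplied periodically to all mice to bring out the cardiomyopathy. The 4 groups were WT vehicle (2 libraries), WT ifetroban (2), KO vehicle (2) and KO ifetroban (3). The labels name no promoter, Cre or deleted exon, so the knockout is described only as far as "delta-sarcoglycan knockout".

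Collagen VI is assembled from the products of Col6a1, Col6a2 and Col6a3 into beaded microfilaments that lie next to the basement membrane of muscle cells, and inherited defects in these chains cause muscular dystrophies. Fibroblasts are its main source in muscle and heart. Col8a1 encodes a chain of the short, network-forming collagen VIII. Collagens XII, XIV and XVI are fibril-associated collagens, which bind to the surface of collagen I and III fibrils or lie near them. Collagens XV and XVIII are basement membrane-zone proteoglycans of the multiplexin type, and the C-terminal fragment of collagen XVIII is endostatin.

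The collagen VI genes sit at a pair of loci. In mm10, Col6a2 (chromosome 10, 76595762 to 76623630) and Col6a1 (chromosome 10, 76708792 to 76726168) are 85161 bases apart on the minus strand. Col18a1 (chromosome 10, 77052178 to 77166548, minus strand) lies further along, with Slc19a1 overlapping it on the opposite strand. No strand rule of the counting is given in the sources used here, so reads of these overlapping genes cannot be told apart. Col6a3 is at chromosome 1, 90765923 to 90843971 (minus strand). The others lie at chromosome 16, 57624258 to 57754737 (Col8a1, minus), chromosome 9, 79598991 to 79718831 (Col12a1, minus), chromosome 15, 55307750 to 55520803 (Col14a1, plus), chromosome 4, 47208161 to 47313167 (Col15a1, plus) and chromosome 4, 130047840 to 130099283 (Col16a1, plus). All 9 are annotated as protein-coding.

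Upstream sequence is shown for the 3 collagen VI genes, since Col6a1 and Col6a2 had nearly the same profile over the libraries and Col6a3 did not, and for Col8a1, the gene that passed the genotype test. Each is the stretch directly upstream of the gene's start, from RefSeq's GRCm38.p6 promoter windows, which held 7 of the 9 genes. It reads 5′ to 3′ on the minus strand, and capitals mark a GC box (GGGCGG on either strand).
Col6a1, chr10:76726169-76726294: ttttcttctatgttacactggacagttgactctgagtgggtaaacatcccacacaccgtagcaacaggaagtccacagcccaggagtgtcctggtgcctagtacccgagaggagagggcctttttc
Col6a2, chr10:76623631-76623880: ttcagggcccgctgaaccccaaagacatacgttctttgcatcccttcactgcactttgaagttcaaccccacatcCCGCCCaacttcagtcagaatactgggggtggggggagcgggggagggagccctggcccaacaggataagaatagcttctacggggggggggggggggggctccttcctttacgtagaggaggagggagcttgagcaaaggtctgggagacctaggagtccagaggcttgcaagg
Col6a3, chr1:90843972-90844221: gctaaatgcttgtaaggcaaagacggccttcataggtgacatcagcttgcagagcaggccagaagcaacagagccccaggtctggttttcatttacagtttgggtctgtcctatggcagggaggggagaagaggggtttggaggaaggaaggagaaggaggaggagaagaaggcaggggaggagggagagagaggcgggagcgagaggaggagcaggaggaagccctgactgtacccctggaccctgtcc
Col8a1, chr16:57754738-57754987: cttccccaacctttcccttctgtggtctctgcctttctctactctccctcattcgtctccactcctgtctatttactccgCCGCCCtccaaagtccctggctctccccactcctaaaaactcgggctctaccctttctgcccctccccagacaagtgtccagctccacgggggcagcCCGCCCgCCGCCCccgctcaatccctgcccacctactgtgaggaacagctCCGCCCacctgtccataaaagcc
Col8a1 held 4 GC boxes and Col6a2 held 1, against 32.7% of all 32851 promoter windows of 250 bases with at least 1. The Col6a3 window and the shorter Col6a1 window of 126 bases held none. The TATA box (TATAAA), also searched on both strands, had no match in any of the 4 windows, and 12.4% of all 250-base windows hold it. The CCAAT box, searched by those letters, was likewise absent from all 4 and is held by 33.8%. The AP-1 site, held by 6.75%, and the MCAT element (GGAATG), held by 12.6%, had no match in them either. A match or its absence describes the letters of these windows only.

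Library totals were 21510263 to 30182955 expected counts, and 15549 genes were tested. The labels do not say that replicates came from separate animals, so p-values measure only the spread between these samples. The libraries fell into 2 sets by a dependence on transcript length that crossed the study's groups. Over 13051 protein-coding genes, longer transcripts lay further below their own average in 4 libraries (Spearman's rho -0.52 to -0.40, called negative slope here) and further above it in 5 (0.38 to 0.43, positive slope). The negative-slope libraries were WT vehicle replicate 1, both KO vehicle libraries and KO ifetroban replicate 1. Genotype under vehicle therefore has a WT library of each kind but only negative-slope KO libraries. Sgcd, the targeted gene, was at 20.9 to 23.7 CPM (the depth-scaled count unit, here with TMM factors) in 3 WT libraries, all of positive slope. In KO it was at 7.30 to 9.64 CPM in the negative-slope libraries and at 12.9 and 13.3 CPM in the positive-slope ones. The library labelled WT vehicle replicate 1 was at 8.36 CPM, within the KO range. Its sums of activated fibroblast, macrophage and cardiomyocyte markers, given below, lay outside the KO ranges. The part of label and of slope in its Sgcd level was not tested. For KO ifetroban replicate 1 the title and source name give ifetroban but the treatment entry reads vehicle; it was kept in the group of its title. The 8 cardiomyocyte markers summed to 41500 CPM or more in every library. That sum goes with heart muscle but does not by itself tell the chamber.

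All 9 collagens had a higher mean in KO than in WT, in both treatments, where 47.1% (vehicle) and 47.8% (ifetroban) of all genes had a positive change. The ranking of the group means was also shared: KO vehicle, KO ifetroban, WT ifetroban, WT vehicle, from high to low, in 7 of the 9. Col6a3 and Col18a1 were highest in KO ifetroban instead, and the lowest group was WT vehicle for every gene. The library labelled WT vehicle replicate 1 was the lowest of all libraries in 8 of the 9, the exception being Col8a1. In KO, ifetroban replicate 1 was the lowest library for 5 of the 9.

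**Figure D1:**
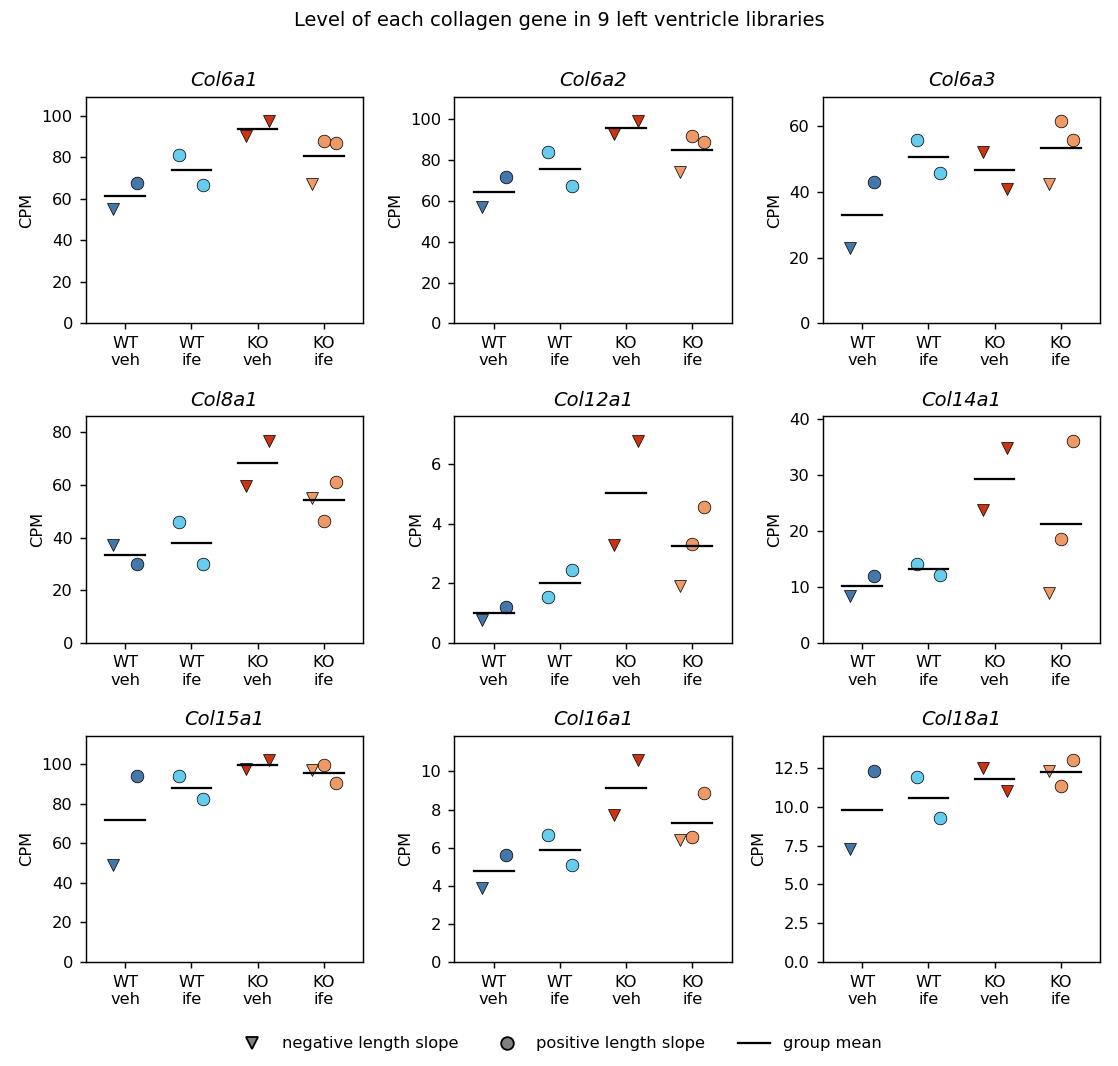
Level of each of the 9 genes (CPM, linear axis from 0) in every library, by group (WT or KO, vehicle or ifetroban); triangles are negative-slope and circles positive-slope libraries, and lines are group means. For Col8a1 all 5 KO libraries lie above all 4 WT libraries, with 46.4 CPM as the lowest KO and 45.9 CPM as the highest WT value.

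Among the collagen VI genes, Col6a1 was at 55.2 and 67.8 CPM in the WT vehicle libraries, 81.0 and 66.7 CPM in the WT ifetroban libraries, 90.2 and 97.4 CPM in the KO vehicle libraries and 67.2, 88.1 and 86.8 CPM in the KO ifetroban libraries. Both KO vehicle libraries were above every WT library, while KO ifetroban replicate 1 lay among the WT values. Col6a2 was at 57.1 and 71.8 CPM in the WT vehicle libraries, 84.1 and 67.3 CPM in the WT ifetroban libraries, 92.7 and 99.0 CPM in the KO vehicle libraries and 74.0, 91.7 and 88.9 CPM in the KO ifetroban libraries. It had the same order of high and low groups as Col6a1. Col6a3, whose large chain carries most of the von Willebrand factor A-type modules of collagen VI, was at 22.8 and 43.1 CPM in the WT vehicle libraries, 55.7 and 45.8 CPM in the WT ifetroban libraries, 52.3 and 41 CPM in the KO vehicle libraries and 42.3, 61.5 and 55.9 CPM in the KO ifetroban libraries. Its groups overlapped apart from WT vehicle, which lay below WT ifetroban.

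Under vehicle the genotype difference was a log2 change of 0.61 ± 0.18 (SE) for Col6a1, 0.57 ± 0.17 for Col6a2 and 0.50 ± 0.29 for Col6a3. None passed (edgeR quasi-likelihood test, Benjamini-Hochberg adjusted p = 0.384, 0.405 and 0.751, 2 KO against 2 WT libraries). Within the negative-slope libraries all 3 passed, in a fit that called 1.60% of all genes, but WT is there only the library labelled WT vehicle replicate 1, whose Sgcd level lay within the KO range. The values were 0.77 (adjusted p = 0.0169), 0.75 (adjusted p = 0.0171) and 1.04 (adjusted p = 0.0250) in the same order of genes. Leaving out the library labelled WT vehicle replicate 1, so that WT is 1 positive-slope library, gave 0.48 for Col6a1, 0.42 for Col6a2 and 0.12 for Col6a3. Over both treatments the changes were 0.34 ± 0.13, 0.35 ± 0.13 and 0.26 ± 0.19 (adjusted p = 0.243, 0.202 and 0.541).

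The ratio of Col6a1 to Col6a2 counts was 0.908 to 0.991 over the 9 libraries, with a mean of 0.963 ± 0.0247 (SD, n = 9 libraries). The ratio of Col6a3 to Col6a1 varied more, from 0.414 to 0.698. It was 0.414 and 0.637 in WT vehicle, 0.688 and 0.686 in WT ifetroban, 0.420 and 0.580 for KO vehicle replicates 2 and 1, and 0.630, 0.698 and 0.644 in KO ifetroban. The negative-slope set (0.414 to 0.630) lay just below the positive-slope set (0.637 to 0.698), while WT (0.414 to 0.688) and KO (0.420 to 0.698) overlapped. By treatment, vehicle libraries (0.414 to 0.637) and ifetroban libraries (0.630 to 0.698) overlapped only slightly. KO ifetroban replicate 1, with the most negative slope, had the highest ratio of the negative-slope set. The longest annotated transcript of Col6a3 has 10106 bases, against 4100 for Col6a1 and 4912 for Col6a2. The part of slope, treatment or transcript length in this ratio was not tested.

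**Figure D2:**
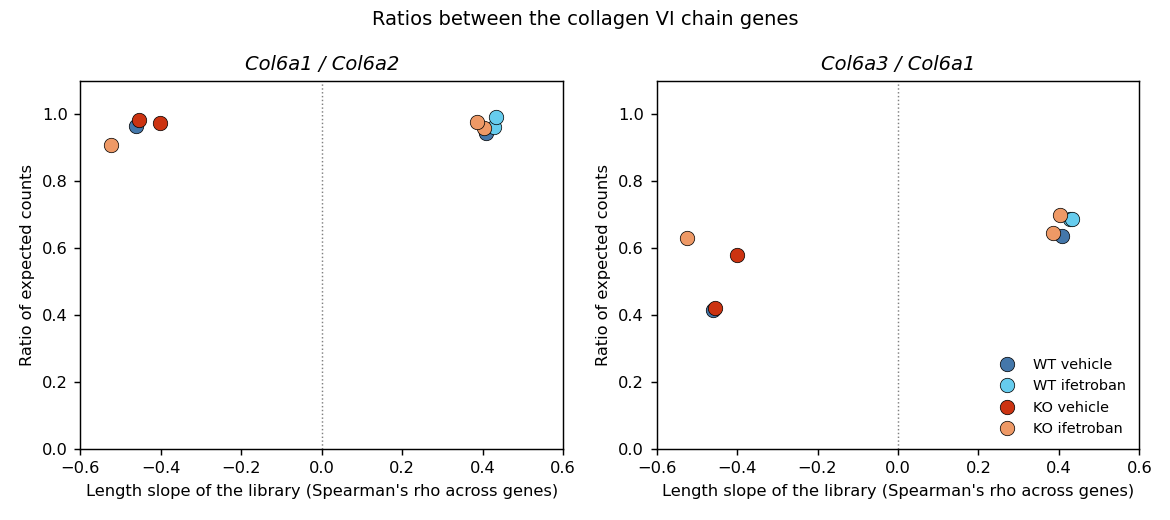
Ratio of expected counts of Col6a1 to Col6a2 (left) and of Col6a3 to Col6a1 (right) in each library against the library's length slope (Spearman's rho of deviation on transcript length, across genes); points are libraries, coloured by group. The left ratio stays within 0.908 to 0.991, and the right one stays at or below 0.630 where the slope is negative and at or above 0.637 where it is positive. By treatment the right ratio is 0.414 to 0.637 in vehicle and 0.630 to 0.698 in ifetroban libraries.

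Col8a1 was at 37.1 and 30.0 CPM in the WT vehicle libraries, 45.9 and 29.9 CPM in the WT ifetroban libraries, 59.8 and 76.9 CPM in the KO vehicle libraries and 55.0, 46.4 and 61.1 CPM in the KO ifetroban libraries. It was the 1 gene of the 9 with no overlap between all KO and all WT libraries, at 59.8 ± 11.2 CPM (SD, n = 5) against 35.7 ± 7.60 CPM (n = 4). Col8a1 passed the test of genotype over both treatments, a model with treatment as a term, with a log2 change of 0.74 ± 0.17 (edgeR, adjusted p = 0.0475). Under vehicle alone its change was 1.03 ± 0.23 (edgeR, adjusted p = 0.238). It passed there with DESeq2 (1.01, adjusted p = 0.0111), in a fit that called 0.926% of all genes. Over both treatments edgeR called 2.33% of all genes, 2.06% as higher, and 4.62% had all KO libraries above all WT. At an unadjusted p under 0.05, 6 of the 9 collagens were higher over both treatments, beside 9.31% of all genes, and all 9 changes were positive, beside 47%. The call is close to the threshold: it was lost, with an adjusted p of 0.0542 to 0.201, without any of 7 single libraries, and kept only without WT ifetroban replicate 1 or KO ifetroban replicate 2. With the slope set as a term the change was 0.67 (adjusted p = 0.153), and without both the library labelled WT vehicle replicate 1 and KO ifetroban replicate 1 it was 0.78 (adjusted p = 0.122).

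Collagen VIII can also contain the chain of Col8a2, a scarce transcript here. It had 8 and 11 counts in WT vehicle, 26 and 27 in WT ifetroban, 60 and 155 in KO vehicle, and 13, 36 and 106 in KO ifetroban. KO vehicle was the highest group, and KO ifetroban overlapped WT. Its log2 change under vehicle was 3.29 ± 0.89 (edgeR, adjusted p = 0.333), and over both treatments 1.87 ± 0.65 (adjusted p = 0.186).

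Among the fibril-associated collagens, Col12a1 and Col14a1 had the largest fitted genotype differences and the widest spread of the 9 genes. Col12a1 was scarce, with 15 to 169 counts per library. It was at 0.769 and 1.21 CPM in the WT vehicle libraries, 1.53 and 2.46 CPM in the WT ifetroban libraries, 3.30 and 6.79 CPM in the KO vehicle libraries and 1.92, 3.31 and 4.56 CPM in the KO ifetroban libraries. KO vehicle was above all WT libraries, and 4 of the 5 KO libraries were. Under vehicle Col12a1 was higher in KO by 2.32 ± 0.51 (log2), a fold of 4.99, and did not pass with edgeR (adjusted p = 0.199). It passed under vehicle with DESeq2 (2.32, adjusted p = 0.00197), with the slope set as a term (2.86, adjusted p = 0.0286) and with a length and GC offset (2.53, adjusted p = 0.0476). Over both treatments the change of Col12a1 was 1.39 ± 0.40 (edgeR, adjusted p = 0.110).

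Col14a1 was at 8.41 and 11.9 CPM in the WT vehicle libraries, 14.1 and 12.2 CPM in the WT ifetroban libraries, 23.8 and 34.9 CPM in the KO vehicle libraries and 8.99, 18.6 and 36.2 CPM in the KO ifetroban libraries. The 4 WT libraries lay close together, whereas KO ifetroban ran from a WT-like value in replicate 1 to the highest of all in replicate 3. The log2 change was 1.52 ± 0.51 under vehicle (edgeR, adjusted p = 0.451) and 1.07 ± 0.35 over both treatments (adjusted p = 0.160). Without KO ifetroban replicate 1, whose labels conflict and which held the lowest KO value, the latter was 1.29 and passed (adjusted p = 0.0222). That fit called 2.37% of all genes, and was the 1 of 19 alternatives in which Col14a1 passed over both treatments. With single libraries left out the change ran from 0.80 to 1.29. Col16a1 was at 3.90 and 5.63 CPM in the WT vehicle libraries, 6.66 and 5.08 CPM in the WT ifetroban libraries, 7.71 and 10.6 CPM in the KO vehicle libraries and 6.41, 6.55 and 8.88 CPM in the KO ifetroban libraries. Its log2 change under vehicle was 0.93 ± 0.27 (adjusted p = 0.375), with KO vehicle above every WT library.

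The basement membrane-zone collagens had the smallest fitted genotype differences of the 9 under vehicle, but not under ifetroban or over both treatments. Col15a1 was at 49.2 and 94.0 CPM in the WT vehicle libraries, 93.7 and 82.4 CPM in the WT ifetroban libraries, 97.4 and 102.0 CPM in the KO vehicle libraries and 97.0, 99.7 and 90.2 CPM in the KO ifetroban libraries. Apart from the library labelled WT vehicle replicate 1, the WT and KO values lay within 82.4 to 102.0 CPM. Its log2 change under vehicle was 0.48 ± 0.25 (edgeR, adjusted p = 0.722), but 0.090 leaving out the library labelled WT vehicle replicate 1. Within the negative-slope libraries, where that library is the only WT one, it was 1.02 (adjusted p = 0.00487). Col18a1 was at 7.28 and 12.3 CPM in the WT vehicle libraries, 11.9 and 9.24 CPM in the WT ifetroban libraries, 12.5 and 11.0 CPM in the KO vehicle libraries and 12.3, 11.3 and 13.0 CPM in the KO ifetroban libraries. Its KO and WT values overlapped, with a log2 change under vehicle of 0.26 ± 0.24 (adjusted p = 0.855) that turned to -0.058 without the library labelled WT vehicle replicate 1.

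Counted over the 9 genes, none passed for genotype under vehicle (edgeR), where 0.0515% of all genes were called. At an unadjusted p under 0.05, 6 of the 9 were higher in KO, beside 5.21% of all genes. In 7 of the 9 both KO vehicle libraries lay above both WT vehicle libraries, as they did in 18.3% of all genes. The median log2 change of the 9 was 0.61, against -0.02 for all genes tested. DESeq2 called 2 of them (Col8a1 and Col12a1) and limma-voom 0. Without both the library labelled WT vehicle replicate 1 and KO ifetroban replicate 1, edgeR called 1, Col6a1 (0.48, adjusted p = 0.0449), in a fit that called 9.63% of all genes, which is near 1 in 9. That comparison sets 1 positive-slope WT library against negative-slope KO libraries, so genotype and slope cannot be told apart in it.

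Under ifetroban the genotype differences were nearer 0 in all 9 genes, although no interaction passed, with a median log2 change of 0.20 against -0.01 for all genes. None passed with edgeR or with DESeq2, beside 0.0386% of all genes called with edgeR. At an unadjusted p under 0.05 there was 1, Col8a1, at 0.51 ± 0.21 (adjusted p = 0.493), beside 6.24% of all genes higher. Col8a1 was also the 1 gene whose KO ifetroban libraries all lay above WT ifetroban, as did 14% of all genes. Col12a1 (0.72 ± 0.44) and Col14a1 (0.70 ± 0.46) had larger values with larger SEs, and the collagen VI genes were at 0.07 ± 0.26 to 0.16 ± 0.16. Without KO ifetroban replicate 3 Col14a1 was at 0.097 and Col12a1 at 0.42, and without KO ifetroban replicate 1 Col14a1 was at 1.06. Leaving out WT ifetroban replicate 1 gave 0.41 for Col12a1 and 0.86 for Col8a1, and leaving out WT ifetroban replicate 2 gave 1.09 and 0.24. Within the positive-slope libraries, 2 KO against 2 WT of these same libraries, the changes ran from 0.13 for Col15a1 to 1.08 for Col14a1. None passed (edgeR, adjusted p = 0.283 to 0.726), in a fit that called 0.386% of all genes.

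**Figure D3:**
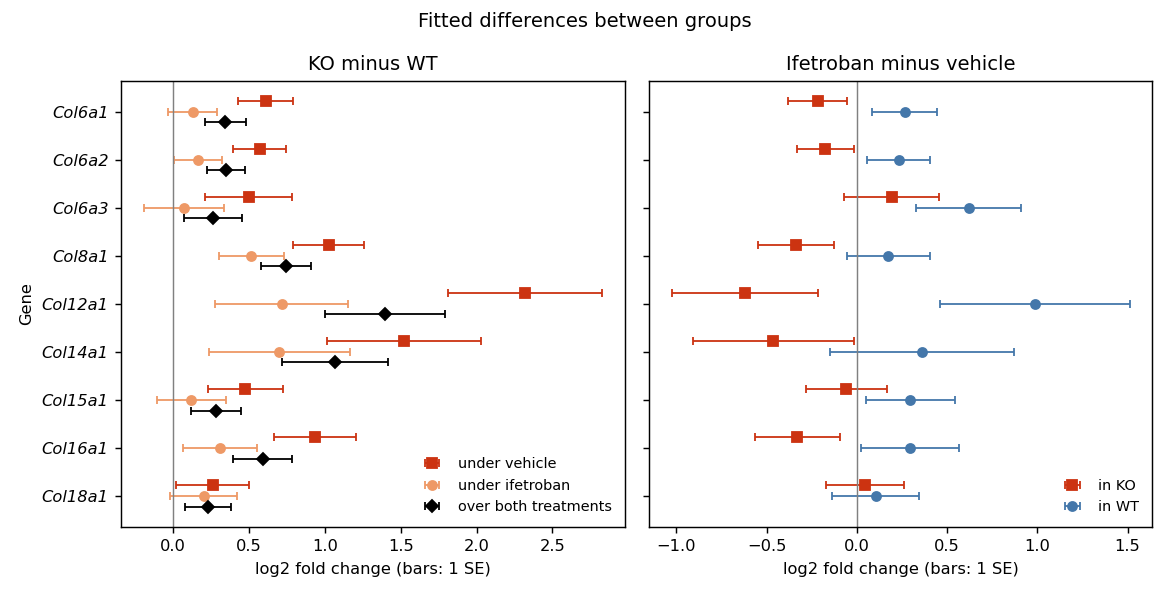
Fitted log2 fold changes with bars of 1 SE for the 9 genes: KO minus WT under vehicle, under ifetroban and over both treatments (left), and ifetroban minus vehicle in KO and in WT (right). All genotype values are above 0, with Col12a1 (2.32) and Col14a1 (1.52) the largest under vehicle, and the ifetroban values are mostly below 0 in KO and above 0 in WT.

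Ifetroban against vehicle gave no call in KO or in WT, where 0% of all genes were called in either comparison (edgeR, and 0 of the 9 by DESeq2). In KO 0 of the 9 reached an unadjusted p under 0.05, beside 3.96% of all genes. In KO 7 of the 9 genes had a lower mean with ifetroban, beside 51.2% of all genes with a higher one, at a median log2 change of -0.22 against 0.01 for all genes. The lowest were Col12a1 (-0.62 ± 0.41), Col14a1 (-0.46 ± 0.44) and Col8a1 (-0.34 ± 0.21), each with an adjusted p of 0.862. Single libraries moved these values: without KO vehicle replicate 1 they were -1.05, -0.72 and -0.51, and without KO vehicle replicate 2 they were -0.012, -0.16 and -0.14. Without KO ifetroban replicate 1 Col12a1 was at -0.36 and Col14a1 at -0.10, without KO ifetroban replicate 2 Col8a1 was at -0.22, and without KO ifetroban replicate 3 Col12a1 was at -0.92 and Col14a1 at -1.07. For Col6a1 (-0.22 ± 0.16) and Col6a2 (-0.18 ± 0.16) all 3 ifetroban libraries lay below both vehicle libraries, as in 9.76% of all genes. They turned to 0.042 and 0.028 when the library with conflicting labels was counted as vehicle, Col14a1 turned to 0.27, and Col12a1 was at -0.037. In WT all 9 had a higher mean with ifetroban, from 0.10 ± 0.24 for Col18a1 to 0.98 ± 0.53 for Col12a1, while 51.9% of all genes had one. None of the 9 reached an unadjusted p under 0.05, beside 2.25% of all genes, and 3 (Col6a3, Col12a1 and Col14a1) had both ifetroban libraries above both vehicle libraries, beside 17.6%. Within the positive-slope libraries, where WT vehicle is 1 library, Col15a1 (-0.11) and Col18a1 (-0.23) turned below 0.

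The interaction, the ifetroban effect in KO minus that in WT, was negative in all 9 genes, with a median of -0.48 against 0.02 for all genes, of which 53.2% were positive. None passed (adjusted p = 1 for each with edgeR, where 0% of all genes were called). Col12a1 had the 1 unadjusted p under 0.05 (-1.60 ± 0.66), beside 0.984% of all genes lower at that level. The interaction is made of the same libraries as the comparisons above and adds no further measurement.

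The 9 genes were set beside the rest of the collagens from lists by class. The 9 genes and these lists were chosen with earlier results of these data known, so differences between the lists are a description only. Over both treatments 2.06% of all genes were called higher with edgeR. Over both treatments 4 of the 8 tested fibrillar collagens rose, among them Col5a2 (0.88 ± 0.11), Col1a1 (0.91 ± 0.13) and Col3a1 (1.16 ± 0.17, edgeR adjusted p = 0.00689 to 0.00968 for these 3), with a list median of 0.62. The other 14 tested non-fibrillar collagens, among them collagen IV of the basement membrane, had a median of -0.10 and no call with edgeR, with 1 higher and 0 lower at an unadjusted p under 0.05. Among these 14, Col6a6, a collagen VI chain gene not followed by name, was at 0.007 under vehicle and -0.72 under ifetroban. Over both treatments it was at -0.40 (edgeR, adjusted p = 0.591). The medians were 0.34 for Col6a1, Col6a2 and Col6a3 and 0.67 for the other 6 described, beside -0.02 for all genes. As a share of the counts of all 39 collagen genes, the 9 held 20.3% to 22.0% in WT, 20.6% and 22.4% in KO vehicle, and 18.6% to 19.8% in KO ifetroban. Collagen VI alone held 11.0% to 12.3% in WT and 9.51% to 11.1% in KO.

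**Figure D4:**
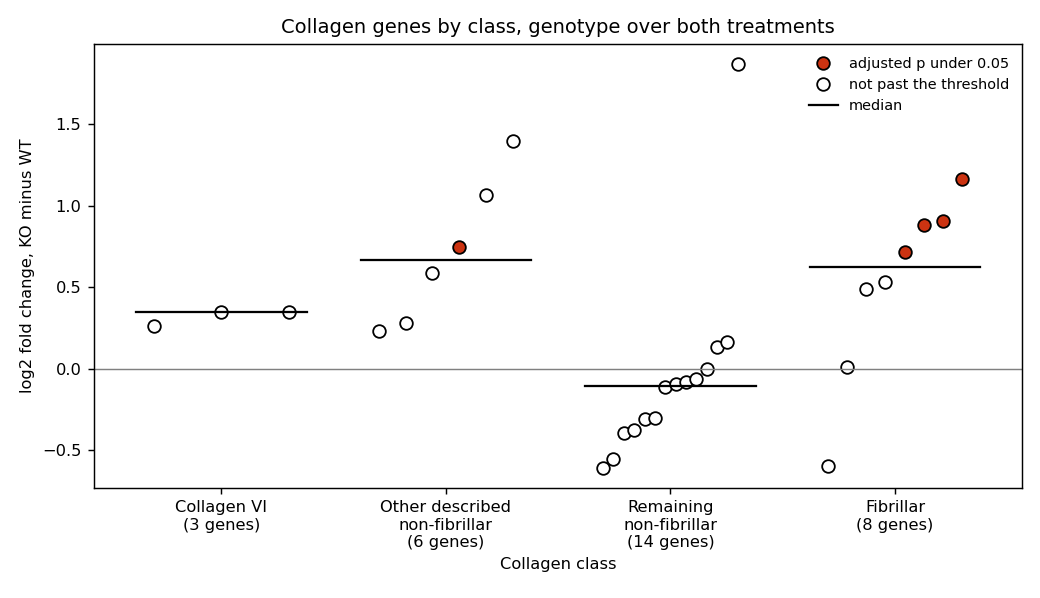
Log2 fold change of KO minus WT over both treatments for each tested collagen gene, by class; filled points passed the threshold, and lines are class medians. The medians are 0.34 for collagen VI (Col6a1, Col6a2 and Col6a3) and 0.67 for the other 6 genes described. They are -0.10 for the 14 remaining non-fibrillar collagens, Col6a6 among them, and 0.62 for the 8 fibrillar collagens. The genes described and the lists were chosen with earlier results of these data known.

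Genes that make or bind collagen were counted in the same way, beside 2.06% of all genes called higher over both treatments with edgeR. Their lists, too, were chosen with earlier results of these data known. Of 33 collagen biosynthesis and processing genes, 6 rose over both treatments and 0 fell. The 3 with the smallest p were the crosslinking enzyme genes Lox (1.90 ± 0.15, edgeR adjusted p = 3.31e-04) and Loxl1 (0.85 ± 0.08, adjusted p = 0.00180) and Pcolce (0.66 ± 0.11, adjusted p = 0.0183), whose product enhances procollagen C-proteinase. The other 3 were P4ha3 (3.28 ± 0.56), a prolyl 4-hydroxylase subunit gene with the largest change of the list, and the Lox family genes Loxl2 (0.61 ± 0.12) and Loxl4 (1.45 ± 0.32). Of 20 tested collagen receptors and binding partners, 2 rose, Fn1 (fibronectin, 1.20 ± 0.17, adjusted p = 0.00901) and Bgn (biglycan, which binds collagen VI, 0.80 ± 0.15, adjusted p = 0.0258). The median of the first list was 0.30 and of the second 0.10.

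In bulk tissue, fewer cells of a type and less RNA per cell cannot be told apart. The marker lists were chosen with earlier results of these data known. Their counts of genes that rose stand beside 2.06% of all genes called higher over both treatments (edgeR). The 10 fibroblast markers summed to 1560 to 1700 CPM in WT vehicle, 1530 to 1800 in WT ifetroban, 2020 to 2150 in KO vehicle and 1500 to 2170 in KO ifetroban, and 1 of the 10 rose over both treatments. The 8 markers of activated fibroblasts summed to 134 to 165 CPM, 169 to 170, 503 to 566 and 298 to 361 in the same order, and over both treatments 4 of the 8 rose (edgeR), with a median of 1.69. The 8 macrophage markers summed to 237 to 324 CPM in WT and 487 to 544 CPM in KO, and 6 of the 8 rose. The 8 cardiomyocyte markers summed to 50200 to 54100 CPM in WT and 41500 to 48200 CPM in KO, with no overlap between the genotypes, and 0 of the 8 passed the test over both treatments (edgeR, 1 lower and 0 higher at an unadjusted p under 0.05). Endothelial markers summed to 704 to 955 CPM in WT and 738 to 933 CPM in KO, and pericyte and smooth muscle markers to 1110 to 1520 CPM in WT and 1060 to 1420 CPM in KO. Skeletal muscle markers summed to 0.958 to 1.85 CPM in WT, 1.37 to 1.59 CPM in KO vehicle and 1.27 to 24.3 CPM in KO ifetroban. Adipocyte markers summed to 0.103 to 0.486 CPM in WT and 0.749 to 2.43 CPM in KO. Of the 5 adipocyte genes listed, 4 were in the data, 3 were below 1 CPM in every library and only 1 was tested. Summed collagen VI was 0.0866 to 0.145 of the fibroblast marker sum in WT libraries and 0.107 to 0.140 in KO libraries, so the ranges overlapped. The part of these cell markers in the collagen differences was not tested.

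Per length, the order of abundance was Col6a1 (17.8 ± 3.21 CPM per kilobase of annotated exon, SD over 9 libraries), Col15a1 (14.1 ± 2.54), Col6a2 (9.70 ± 1.66), Col8a1 (6.27 ± 2.00), Col6a3 (3.90 ± 0.959), Col14a1 (2.68 ± 1.52), Col18a1 (1.60 ± 0.261), Col16a1 (1.01 ± 0.299) and Col12a1 (0.189 ± 0.124). The order was the same per kilobase of the longest transcript, where Col6a1 was at 19.0, Col15a1 at 17.3 and Col6a2 at 16.4, within their spread of each other. From lowest to highest library, Col6a2 varied 1.73-fold, Col14a1 4.30-fold and Col12a1 8.82-fold.

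Across the 9 libraries, whose values also carry group and length slope, the pair closest in log2 CPM was Col6a1 and Col6a2 (Pearson's r = 0.991, a description over 36 pairs). The least alike were Col6a3 and Col8a1 (r = 0.26), and Col15a1 was closest to Col18a1 (r = 0.88). Among 13494 protein-coding genes, collagen VI itself left out, those most like the mean of its 3 genes were Cyp2e1 (r = 0.962), Hvcn1 (r = 0.957), P2rx7 (r = 0.956), Iqgap2 (r = 0.956) and Ccdc88a (r = 0.948). The closest gene was Panx1 for Col8a1 (r = 0.979), Ptn for Col12a1 (r = 0.948), Ssc5d for Col14a1 (r = 0.987), B930041F14Rik for Col15a1 (r = 0.956), Loxl3 for Col16a1 (r = 0.973) and Oasl1 for Col18a1 (r = 0.978). With 9 libraries and so many genes, values of this size are a ranking only.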

How the data were processed

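RNA-seq of left ventricle was analysed from the authors' deposited expected counts per gene, estimated values of which 28.2% were not whole. Per the submitters' processing notes, bcl2fastq, STAR and Partek were used, with mm10. How reads were assigned to genes: not given in the sources used here. Coordinates are the deposited ones with 1 subtracted from the end, since 15566 of 19704 symbols then matched GENCODE M21 (70 before). Libraries were grouped by title.

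Counts were rounded, filtered with filterByExpr (minimum count 10), scaled by TMM and tested with edgeR 4.0.16 quasi-likelihood fits (robust; R 4.3.3) on 4 group means over all 9 libraries, or on genotype plus treatment. P-values were adjusted over 15549 genes (Benjamini-Hochberg, threshold 0.05). SE is the log2 change divided by the square root of F. Log2 CPM used a prior count of 2. Every one of the 9 genes is named, with up to 3 called genes per list and the most correlated genes. Col8a2, P4ha3, Loxl2 and Loxl4 were named after their values were seen. The 9 genes and all lists were chosen with earlier results of these data known. The fits were tested on simulated data (15549 genes, 200 of them changed). Its counts were drawn independently around 1 mean per gene. The simulation held no length-slope sets and no library of doubtful label, so its rates need not hold for these libraries. For genotype under vehicle, 50% of simulated 1-unit log2 changes and 90% of 2-unit changes were found, with 11 false calls. Over both treatments the figures were 74%, 96% and 17, and for the interaction 14%, 66% and 7. The changed genes were split equally between 1-unit and 2-unit changes. In each of these comparisons the false calls were a larger share of all calls than the threshold of 0.05. Alternatives were DESeq2 1.42.0 (test or size factors), limma-voom 3.58.1, other filters, only the groups compared, a replicate block, relabelling, length corrections and libraries left out.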

Additional observations from a re-analysis of the deposited data

How the results depend on the processing

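Genotype under vehicle, where none of the 9 genes passed, had 2 passing with DESeq2's test, 3 with the slope set as a term (Col6a1, Col6a2 and Col12a1), 5 within the negative-slope libraries, 1 with a length and GC offset (Col12a1) and 1 leaving out both KO ifetroban replicate 1 and the library labelled WT vehicle replicate 1 (Col6a1). Genotype over both treatments, where 1 passed, had 2 with DESeq2's test, 0 with the slope term, 3 with the offset and 0 without those 2 libraries, and 0 to 2 with single libraries left out (2 without KO ifetroban replicate 1). Of all genes, the fits under vehicle called 0.926% (DESeq2), 0.759% (slope term), 1.60% (negative slope), 0.212% (offset), 9.63% (without both libraries) and 0.360% (block), against 0.0515%. Over both treatments these were 5.76%, 3.04%, 5.09% (offset) and 3.34% (without both libraries), against 2.33%. The other 4 comparisons had 0 of the 9 under every alternative run, although several of these fits called other genes. Genotype under ifetroban called 1.87% of all genes with DESeq2, 1.11% with the block and 0.92% with the slope term. Without both KO ifetroban replicate 1 and the library labelled WT vehicle replicate 1, WT vehicle is 1 library. There the ifetroban contrast in KO called many other genes, and the interaction called some. With the replicate number as a block, 1 passed under vehicle (Col12a1, 2.31, adjusted p = 0.0116), and Col14a1 under ifetroban (-0.0074) and Col18a1 for ifetroban in KO (-0.0034) reversed. Deviations of same-numbered libraries correlated at -0.0622 to 0.499, and those of different-numbered ones at -0.499 to 0.303. The highest value joined 2 negative-slope libraries, WT vehicle replicate 1 and KO ifetroban replicate 1. In groups of 2 libraries the deviations mirror each other, so these values cannot decide whether numbers pair samples. The numbers were not taken to pair them.

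None of the values that reversed had passed. Without both doubted libraries these were Col18a1 under vehicle (-0.057), Col15a1 (-0.11) and Col18a1 (-0.23) for ifetroban in WT, and Col6a3 (0.11), Col15a1 (0.037) and Col18a1 (0.27) for the interaction. With KO ifetroban replicate 1 counted as vehicle, ifetroban in KO gave 0.042 for Col6a1, 0.028 for Col6a2 and 0.27 for Col14a1. With the slope term it gave -0.26 for Col6a3 and -0.15 for Col18a1, and in WT -0.17 for Col14a1 and -0.018 for Col18a1. Within 1 slope set it gave -0.14 for Col6a3 in KO, and -0.11 for Col15a1 and -0.23 for Col18a1 in WT. With the offset it gave -0.11 for Col6a3 and -0.11 for Col18a1 in KO, and -0.0010 for Col8a1 and -0.068 for Col18a1 in WT.

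With 1 library left out at a time, ranges that crossed 0 were -0.058 to 0.69 for Col18a1 under vehicle, -0.0068 to 0.27 for Col6a1 and -0.066 to 0.22 for Col6a3 under ifetroban, and -0.042 to 0.14 for Col18a1 under the drug contrast in KO. In WT, that contrast gave -0.17 to 0.45 for Col8a1, -0.11 to 0.84 for Col15a1 and -0.23 to 0.54 for Col18a1, and for the interaction -0.90 to 0.053 for Col15a1 and -0.49 to 0.28 for Col18a1. The cause was not tested. A group reduced to 1 library was assumed to vary like the others. Fits within 1 slope set were not run for the interaction or over both treatments. At 15 to 169 counts, Col12a1 is limited by depth.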
